A study of Mus musculus with 8 samples.

Results

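The genes described here encode the proteins of elastic fibres and of the microfibrils on which they are built, and were chosen by symbol from a list of 10 genes: Eln, Fbn1, Fbn2, Fbln1, Fbln2, Fbln5, Efemp2, Emilin1, Mfap2 and Mfap5. Of these 10, 8 had a row among the 12589 genes of the expression table. No row for Eln, the elastin gene itself, or for Mfap2 was found under the current or an older symbol, so both are not analysed here, and a missing row gives no level. The study treated a mouse spleen stromal cell line, mSSC-YFP, for 48 h with BMS493, an inhibitor of retinoic acid signaling, or with its vehicle DMSO, and measured mRNA by RNA-seq in 4 samples per treatment. All samples were grown in DMEM with fetal bovine serum, and all came from 1 immortalized line that expresses yfp, so they carry no variation between animals.

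The value used for each gene is the authors' mean log2 normalized expression over all samples of both treatments together. It has no standard deviation, and the depth of each library is unknown from the table. The table's other columns hold the authors' own comparison of BMS493 with DMSO and were not used, so no effect of the inhibitor on these genes is reported. Summed over all genes, 2 raised to this mean came to 989369, so the values are read as log2 CPM (counts scaled to the library total), and the linear value of a gene is a geometric mean. As these were bulk samples, a low mean does not tell few expressing cells from little RNA in each cell.

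Elastic fibres give lungs, arteries and the capsule and trabeculae of the spleen their recoil. Fibrillins assemble end to end into microfibrils, which also hold latent TGF-beta. Tropoelastin, the soluble product of Eln, is brought to this scaffold by short fibulins and crosslinked there by lysyl oxidases. Stromal and smooth muscle cells make most of these proteins.

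The labelled cell type was checked against marker genes first. Of 11 mesenchymal markers 10 had a row, with mean log2 levels from 5.24 for Pdgfra to 13.29 for Col1a1. Lum, a proteoglycan gene of many fibroblasts, had none. Of 6 smooth muscle markers 4 had a row, up to 11.53 for Acta2, and Myh11 and Des had none. None of the 5 B cell markers and none of the 5 markers of other blood cells had a row. Among 6 endothelial markers only Kdr, at 2.83, and Pecam1, at 0.47, had one. Of 5 epithelial markers, Krt8 and Krt18 were low at 1.55 and 0.31, Epcam and Krt5 had no row, and Cdh1, the gene of E-cadherin, reached 8.03, which per kilobase of transcript is 5.88.

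The measured genes spread over most of the range of expression in these cells. The order is given on a scale divided by length, since a long transcript gives more fragments than a short one at the same number of molecules: the mean log2 level minus the log2 of the length, in kilobases, of the gene's longest annotated transcript. On this scale the order from high to low was Fbln2, Efemp2, Fbln5, Emilin1, Fbn1, Fbln1, Fbn2 and Mfap5. The distance from Fbln2 to Mfap5 was 9.86 on the log2 scale. Of the 8 genes, 5 lay above the median level per kilobase of all genes, which was 3.28, and 3 lay below it. The widest step between neighbours lay between these 5 and the others, with Fbn1 2.44 above Fbln1 in log2 level per kilobase. Steps of nearly that size lay inside both groups, 2.36 from Fbln2 to Efemp2 and 2.11 from Fbn2 to Mfap5. With the median transcript length Fbn2, at 5.11, was above Fbn1, at 4.70, so the 2 groups did not stay apart. No spread between samples can be set beside any of these distances, so neighbours in the order are not shown to differ by a test.

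**Figure D1:**
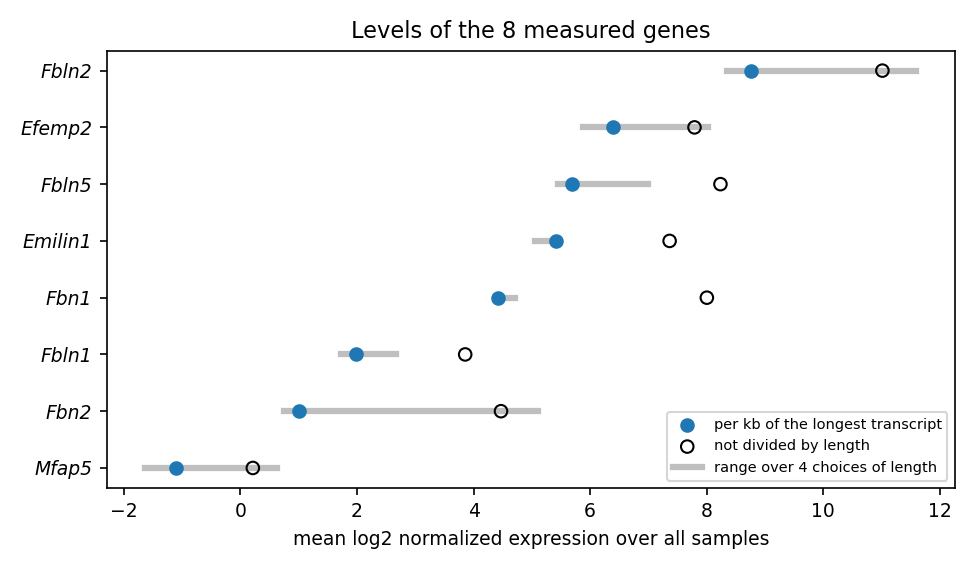
Levels of the 8 genes with a row, as the authors' mean log2 normalized expression over all samples (horizontal axis). Filled points are divided by the length of the longest transcript, grey bars span 4 choices of that length (longest, merged exons, median, longest coding), and open points are not divided. Fbln2 is highest at 8.76 and Mfap5 lowest at -1.10 per kilobase, and the bar of Fbn2 is the widest.

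Fibrillins form the backbone of the microfibril. Fbn1, the fibrillin gene of adult tissue that is mutated in Marfan syndrome, had a mean log2 level of 8.003, at percentile 94.9 of all genes. Its longest transcript, of 11971 bases in 65 exons, is the longest of the 8, and per kilobase the log2 level was 4.42, at percentile 72.5. Fbn2, the fibrillin gene best known from the embryo, had a mean log2 level of 4.47, and per kilobase it lay at 1.01, at percentile 16.0. Both genes have 65 exons in their longest transcript and coding sequences of 2873 and 2907 codons, stop codon left out, so that length hardly enters their comparison. The level of Fbn1 was 10.7 times that of Fbn2 per kilobase and 11.6 times without division by length, and Fbn1 made up 91.4% of the fibrillin level per kilobase. With the median transcript length the 2 changed places, where the log2 level of Fbn1 minus that of Fbn2 was -0.41, because the median over the 6 annotated Fbn2 transcripts is 640.5 bases. Fbn1 lies on chromosome 2 from 125300594 to 125507993 of GRCm38 and Fbn2 on chromosome 18 from 58008623 to 58210487, both on the minus strand. The Fbn1 exons share 2442 bases, 20.1% of their merged length, with Gm9913 on the opposite strand. The library kit keeps the strand, but whether the counting used it is not given in the sources used here, and Gm9913 had no row.

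The fibulins are secreted glycoproteins with chains of calcium-binding EGF-like modules, and they held both the highest level and one of the lowest. Fbln2, a long fibulin that binds fibrillin and basement membrane proteins, was the highest of the 8 on each scale, with a mean log2 level of 11.01 that ranked 28 among the 12589 genes. This corresponds to 2068 CPM. Per kilobase the log2 level was 8.76, at percentile 99.3. Fbln1, the other long fibulin, which binds fibronectin and elastin, had a mean log2 level of 3.86, or 14.5 CPM, and a level per kilobase of 1.99 at percentile 26.9. Fbln2 thus stood 109 times above Fbln1 per kilobase and 143 times without division by length. Of the level per kilobase of the long fibulins together, 0.908% was Fbln1. Fbln2 lies on chromosome 6 from 91212455 to 91272540 and Fbln1 on chromosome 15 from 85205949 to 85286535, both on the plus strand.

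The short fibulins deliver tropoelastin and lysyl oxidase to the microfibril, and mice that lack Fbln5 or Efemp2 have defective elastic fibres. Efemp2, the gene of fibulin-4, had a mean log2 level of 7.79, at percentile 93.6, and 6.39 per kilobase, at percentile 93.9. Fbln5 had a mean log2 level of 8.24, at percentile 95.9, and 5.69 per kilobase, at percentile 89.1. Their order depended on the length. Efemp2 was 1.63 times Fbln5 per kilobase of the longest transcript, but the log2 level of Efemp2 minus that of Fbln5 was -0.45 without division by length and -0.03 with the transcript of the longest coding sequence. Both stood well above the long fibulin Fbln1, Efemp2 by 21.2 times and Fbln5 by 13.1 times per kilobase. Efemp2 lies on chromosome 19 from 5473954 to 5482517 on the plus strand, where 173 bases of its exons, 4.57%, overlap those of Mus81 on the opposite strand, a gene with a mean log2 level of 4.97. Fbln5 lies on chromosome 12 from 101746565 to 101819055 on the minus strand.

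The sequence just before the annotated start is shown for these fibulins of unlike level, in the 5′ to 3′ direction of the gene, as RefSeq gives it on GRCm38.p6. Each line holds the 100 bases before the most upstream start of the RefSeq promoter table. They are Fbln5 (chr12:101819120-101819219, minus strand), Efemp2 (chr19:5473846-5473945, plus strand) and, at the low end, Fbln1 (chr15:85205849-85205948, plus strand), none of which touches an annotated exon. Capitals mark the GC box, the letters GGGCGG on either strand.
Fbln5: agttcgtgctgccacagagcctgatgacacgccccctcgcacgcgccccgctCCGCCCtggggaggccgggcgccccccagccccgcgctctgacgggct
Efemp2: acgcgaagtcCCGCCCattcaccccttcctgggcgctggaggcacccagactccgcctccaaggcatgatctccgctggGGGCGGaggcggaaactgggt
Fbln1: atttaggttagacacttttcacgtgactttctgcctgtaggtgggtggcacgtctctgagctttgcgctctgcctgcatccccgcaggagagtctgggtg

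The 100 bases of Fbln5 hold 77% G and C and 12 CpG, those of Efemp2 68% and 8, and those of Fbln1 55% and 4. The GC box begins 48 bases before the start of Fbln5, and 90 and 21 bases before that of Efemp2. It is absent from the Fbln1 line. In the whole RefSeq window, which runs from 250 bases before to 50 after a start, 35.7% of 32851 windows of the mouse genome hold a GC box, with chromosome 18 left out. The window of a second Fbln1 start, which lies further downstream and overlaps the first window, holds 2 GC boxes. It has 64.0% G and C and 24 CpG, against 51.7% and 12 in the first Fbln1 window and 65.7% and 24 in the first Fbln5 window. Of the 2 Fbln1 starts, the absence of the GC box and the lower CpG count thus apply to the first only. Of the other members with a row, Fbln2 and Fbn1 have a GC box in their window, and Emilin1, which is at percentile 86.6 per kilobase, and the second Fbln5 start have none. Windows of genes with higher levels also had fewer CpG than the 12 of the first Fbln1 window. They were Fbln2 with 10, the second Fbln5 start with 8 and Emilin1 with 6. Fbn1, the first Fbln5 start and the 3 Efemp2 starts had more, from 14 to 41. The letters AGGTCA, bound by nuclear receptors and the building block of retinoic acid response elements, are in 16.3% of all windows. Among the members with a row they stand once at the second Fbln5 start and once at the second of 3 Efemp2 starts, and in no window of Fbn1, Fbln1, Fbln2 or Emilin1. No window of these 6 genes holds a TATA box, searched as TATAAA, which 13.6% of all windows do, or an AP-1 site, TGANTCA, which 7.81% do. The CCAAT box, CCAAT, in 37.4% of all windows, is in 1 window each of Fbln5 and Emilin1. All motifs were searched on both strands, and a match of letters is no evidence that a factor binds.

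Emilin1, which encodes a glycoprotein at the interface of elastin and microfibrils, had a mean log2 level of 7.36, at percentile 90.4. Per kilobase this was 5.42, at percentile 86.6. It stood 0.27 below Fbln5 on the log2 scale per kilobase, the smallest distance between neighbours in the order, and 1.00 above Fbn1. Without division by length the log2 level of Emilin1 minus that of Fbn1 was -0.64. Emilin1 lies on chromosome 5 from 30913402 to 30921277 on the plus strand, and its longest transcript of 3852 bases has 8 exons. It shares no exon bases with another annotated gene.

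Mfap5, the gene of the microfibril-associated glycoprotein MAGP-2, was the lowest of the 8 on each scale. Its mean log2 level of 0.21, or 1.16 CPM, was at percentile 1.68 of all genes, where the lowest value in the table is -0.58. Per kilobase the log2 level was -1.10, at percentile 2.98. The longest annotated transcript, of 2491 bases, holds no coding sequence, and with the transcript of the longest coding sequence, of 1506 bases, the level per kilobase became -0.38, still the lowest. Mfap5 lies on chromosome 6 from 122505845 to 122529290 on the plus strand, the chromosome that also carries Fbln2.

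**Figure D2:**
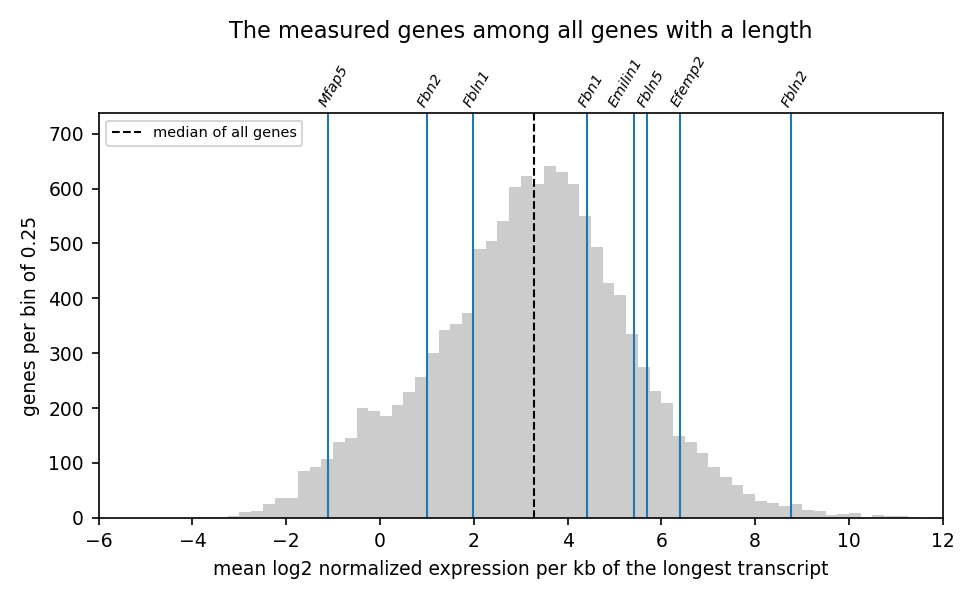
Distribution of the authors' mean log2 normalized expression per kilobase of the longest transcript over the 12364 genes with a length (horizontal axis; vertical axis, number of genes per bin), with the 8 measured genes as blue lines and the median of 3.28 dashed. Fbln2 sits in the upper tail, Mfap5 in the lower, and 5 of the 8 lie to the right of the median.

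A single gene made up most of the total. The 8 genes summed to 3050 CPM, or 0.308% of the sum over all genes, and Fbln2 alone was 67.8% of that. Fbln5 followed with 9.88%, Fbn1 with 8.41%, Efemp2 with 7.26% and Emilin1 with 5.40%. Fbn2, Fbln1 and Mfap5 each stayed under 1%, at 0.727%, 0.475% and 0.0380%. Per kilobase the share of Fbln2 was 67.7%, that of Efemp2 13.2% and that of Fbn1 3.36%.

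Other genes linked to elastic fibres or microfibrils by role or only by name were read from a list of 42, of which 31 had a row. The list is not limited to assembly and includes 7 genes for enzymes that degrade elastin. In all, 19 of the 31 lay above the median level per kilobase of all genes and 8 at or above percentile 90, against 5 and 2 of the 8 members. The lysyl oxidases, which crosslink tropoelastin, all had a row, and 5 of 5 lay above that median, from Loxl4 at a log2 level per kilobase of 3.40 to Lox at 7.99. Lox was the highest of the 31 per kilobase of the longest transcript, and on that scale only Fbln2 among the members was above it. The latent TGF-beta binding proteins, relatives of the fibrillins, ran from Ltbp2 at 2.79 to Ltbp1 at 7.41 per kilobase, with 3 of 4 above the median. On this scale the 4 were higher than Fbn2, and 2 of the 4 were higher than Fbn1. With the median transcript length Fbn2, at 5.11, was above Ltbp2, at 3.54, and Ltbp4, at 4.31.

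Among the fibulins that are not members, Efemp1, the gene of fibulin-3, was at a log2 level per kilobase of 7.15, above Efemp2 and Fbln5, and Hmcn2, a giant hemicentin, was at -3.19. Without division by length Efemp1 was below Fbln5, at 8.18 against 8.24. Fbln7 had no row. Of the other emilin family genes only Emilin2 had a row, at 3.39 per kilobase, against 5.42 for Emilin1, but with the median transcript length Emilin2 was the higher, at 6.43 against 5.42. The other genes named for microfibril-associated proteins all had a row but none lay above the median of all genes, from Mfap3l at -2.12 to Mfap3 at 3.26. Mfap3 lay just under the median of 3.28, and without division by length its mean log2 level of 5.54 was above the median of all genes, 4.99. For the ADAMTS and ADAMTS-like genes 6 of 9 had a row and 2 were above the median, from Adamtsl3 at -2.12 to Adamts10, which binds fibrillin-1, at 4.47.

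Chaperone and trafficking genes, which include the elastin receptor complex, had 4 of 4 above the median, from Neu1 at 3.63 to Fkbp10 at 7.55 per kilobase. Of 7 genes for enzymes that degrade elastin, 3 had a row and all 3 were above the median, from Ctsk at 3.84 to Mmp2 at 7.34. The macrophage elastase gene Mmp12 and the neutrophil elastase gene Elane had none.

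**Figure D3:**
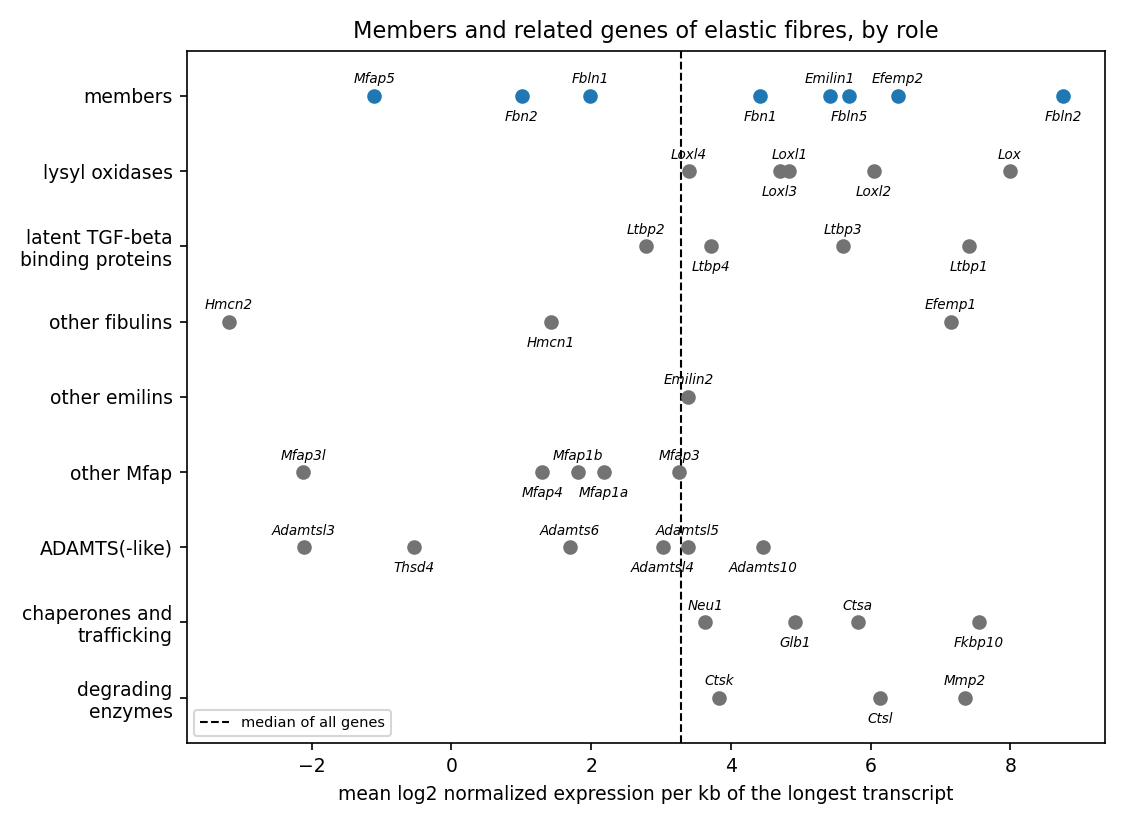
Log2 level per kilobase of the longest transcript (horizontal axis, the authors' mean over all samples) of the 8 measured members (blue) and 31 related genes (grey), 1 point per gene, in rows by role, with the median of all genes dashed. All 5 lysyl oxidases lie to the right of the median, whereas the other Mfap genes lie to its left, as do the members Mfap5, Fbn2 and Fbln1.

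The 2 other matrix families read in the same cells had lower medians than the 8 members, but the counts of high genes gave another order. The median log2 level per kilobase was 4.92 over the 8 members. Of 44 collagen chain genes 27 had a row. Over these 27 it was 4.68, from -2.90 for Col17a1 to 10.72 for Col1a1. Above the median of all genes lay 16 of the 27, and 5 of the 8 members. Of 11 laminin chain genes 9 had a row. Over these 9 the median was 2.81, with Lamc1 highest at 6.73, and 4 of the 9 lay above the median of all genes. At or above percentile 90 lay 11 of the 27 collagen chains and 3 of the 9 laminin chains, against 2 of the 8 members. The 31 related genes with a row had a median of 3.63, below that of the collagen chains. On this scale Fbln2 was above all 9 laminin chains but below Col1a1. These medians are descriptions of genes that share the same samples and were taken on this length scale only. The differences between families were not tested.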

How the data were processed

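Stranded mRNA libraries were sequenced from one end, although the protocol in the labels describes amplification for arrays. According to the study's methods and its processing notes, reads were checked with FastQC, aligned to mm10 (GRCm38) with STAR 2.3.0e, counted on Ensembl genes when uniquely mapped, and normalized by the weighted trimmed mean of M-values method, with limma for the comparison. The authors deposited 1 table of 12589 genes whose values on the log2 scale are means over the 8 samples. Its filter on genes is not given in the sources used here. Another 4 columns of the authors' table hold their log2 fold change, t, p-value and adjusted p-value of BMS493 over DMSO, and these were not used. Values of single samples were not analysed here, so no test of the treatment was run, although one had been planned for that case. Decimal commas were converted on reading.

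Gene symbols were looked up in the GENCODE M21 annotation of GRCm38, 11765 by symbol and 599 by 1 older symbol, which gave 98.2% of the genes a length. A percentile is the share of genes below a value, with a tied gene counted as 0.5. Levels were divided by the length of the longest annotated transcript. The percentile calculation was tested on simulated data, and the division by length and the motif search had no such test. Python 3.11.15, numpy 2.4.6 and pandas 2.3.3 were used.

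All 10 members were to be named, and from the related genes the highest and lowest per role. The 3 genes nearest to Eln were also to be named, which could not be done. Adamtsl6 is an older name of Thsd4 and was counted once. Members and lists were chosen with earlier results of these data known, and the collagen and laminin families, motifs and remarks on Lum, Cdh1, Fbln7, Mmp12 and Elane were added after the values were seen. RefSeq promoter windows were read for 6 of the 8 members with a row. Fbn2 was not searched because windows on chromosome 18 were left out, and Mfap5 had no window.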

Additional observations from a re-analysis of the deposited data

How the results depend on the processing

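No paired analysis was possible because only means over both treatments were read. For the same reason the comparison of treatments and its variations (leaving out each replicate, no filter, another normalization or pseudocount) were not run.

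Of the 8 members, 5 lay above the median of all genes per kilobase of the longest transcript, with merged exons, without division by length, among protein-coding genes and among genes with a mean log2 level of at least 1, where Mfap5 drops out and 7 members are left. It was 6 with the median transcript length. At or above percentile 90 lay 2 members with the longest transcript and 5 without division by length, Fbn1, Fbln5 and Emilin1 being the additional ones. The number was 3 with merged exons and 2 with the median transcript. The length of the transcript with the longest coding sequence, an alternative chosen after seeing the data, gave 5 above the median and 3 at or above percentile 90. Over these scales 23 of the 28 pairs of members kept their order. The pairs that turned were Efemp2 with Fbln5, Efemp2 with Fbn1, Emilin1 with Fbn1, Fbn1 with Fbn2, and Fbln1 with Fbn2. Precision is limited by the missing spread between samples and by the depth of single libraries, which the table does not give. Of the orders between members and related genes stated above, those that turned were Emilin1 with Emilin2, Fbln5 with Efemp1, and Fbn2 with Ltbp2 and Ltbp4.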
